A study of Bos taurus with 12 samples.

Results

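The region described here is the imprinted domain towards the end of bovine chromosome 29, chr29:48800000-50500000 of bosTau8, which carries KCNQ1, ASCL2, INS, IGF2, H19 and LSP1. Its members are the 2093 tested CpG positions, counted strand by strand, whose start lies between these limits, out of 838705 positions tested in all. They belong to 1654 CpGs. Reduced representation bisulfite sequencing (RRBS), which reads the CpG-rich ends of restriction fragments after bisulfite conversion, was performed on 12 dermal fibroblast cultures at passage 6. The cultures came from 6 Holstein heifers, each sampled at 5 months (young cultures, n = 6) and again at 16 months of age (old cultures, n = 6), and DNA was taken from cells that had not been treated. The animals carried no engineered allele, were chosen by the study as middle responders in their IL-8 response, and each gave 1 culture per age, expanded from frozen cells. The methylation data hold no marker against which the labelled cell type could be checked.

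Imprinted genes are expressed mainly from the copy inherited from a single parent, and the difference is kept by DNA methylation of an imprinting control region on the copy from the mother or from the father. In mammals, the control region of H19 and IGF2 lies before H19, is methylated on the paternal copy and keeps IGF2, a fetal growth factor, active there, while H19, a non-coding RNA, is made from the maternal copy. A further control region lies within KCNQ1, at the start of the non-coding RNA KCNQ1OT1, and is methylated on the maternal copy. Where a single copy is methylated, reads from both copies together give an intermediate methylation ratio.

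The methylation ratio of a position is the share of its reads that carried a cytosine, given here in percent, and the level of a position is the mean of its 12 ratios. The mean coverage of the domain was from 13.1 to 15.5 reads per position in the young cultures and from 11.5 to 16.2 in the old cultures, and no position had fewer than 5 reads in any culture. A single ratio therefore moves in steps of several percentage points, and both mates of an overlapping pair were counted. At 510 positions of the domain (24.4%), against 14.6% of all tested ones, each of the 12 cultures had an even coverage. Gene names were available for the positions of the authors' list of differing positions. A table of genes on another assembly, ARS-UCD2.0, gives the 13 genes named in the domain in the same order: KCNQ1, TSSC4, CD81, TSPAN32, ASCL2, TH, INS, IGF2, H19, MRPL23, LSP1, TNNI2 and AP2A2. MOB2 comes before AP2A2 there but beyond the end of the domain on bosTau8, so the same order does not hold for every gene. Whether genes of the domain that the list does not name, such as CDKN1C, PHLDA2 or KCNQ1OT1, held tested positions could not be read from it.

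The domain held fewer unmethylated and more fully methylated positions than the tested genome as a whole. The level was below 10% at 1028 positions (49.1%), against 62.5% of all tested positions. It was above 90% at 229 positions (10.9%), against 4.72% of all positions. Intermediate levels, from 25 to 75%, were found at 404 positions (19.3%), and 17.8% of all positions had one. On the rest of chromosome 29 this share was 21.5%, higher than in the domain. The mean level was 32.1% in the domain and 24.0% over all positions. Between the start of the domain and the first KCNQ1 position, 13.3% of 826 positions were intermediate, whereas between ASCL2 and MRPL23, the interval of INS, IGF2 and H19, 24.6% of 475 were. These shares describe the tested positions and were not tested against each other.

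Methylation of the domain as a whole was close in both ages. The mean ratio had a lowest value of 31.3%, a median of 32.3% and a highest value of 34.4% in the young cultures, and 31.1%, 31.6% and 32.2% in the old cultures. The young cultures were higher in 5 of 6 animals, by 0.882 ± 1.20 percentage points (SD, n = 6 animals). Over all tested positions the same difference was 0.437 ± 0.580 percentage points.

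**Figure D1:**
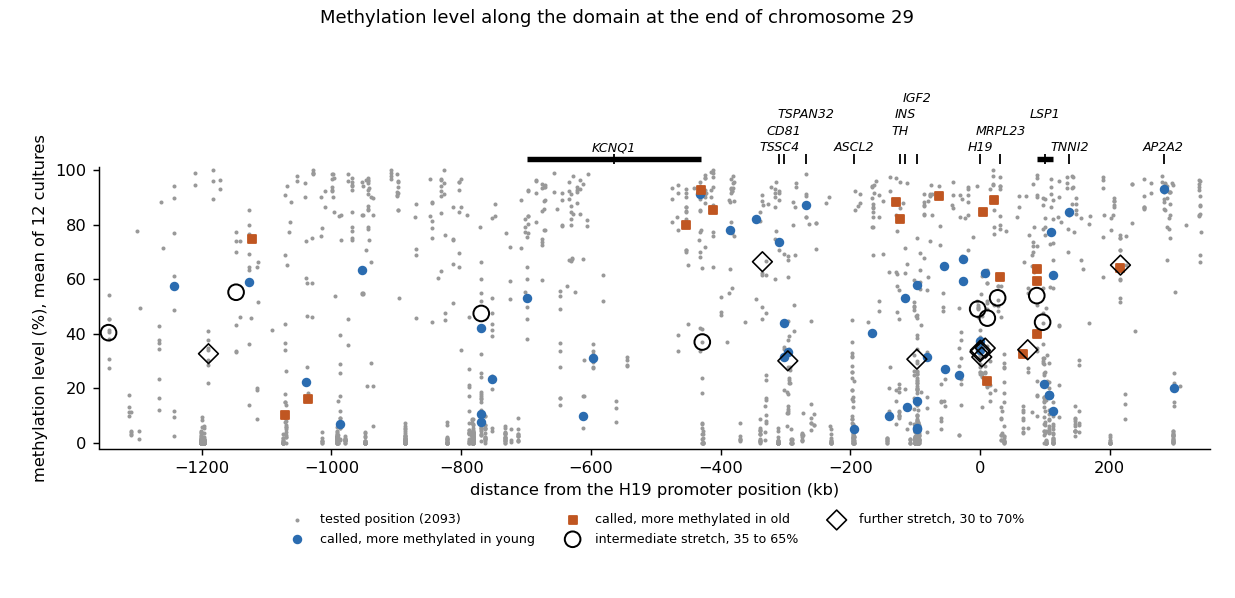
Methylation level of each tested position (percent, mean of 12 cultures) against its distance in kb from the H19 promoter position that the authors' list names. Coloured points are the 47 positions called more methylated in young and the 18 called more methylated in old cultures, open circles the 9 stretches with a smoothed level of 35 to 65%, diamonds further stretches at 30 to 70%, and bars above the plot the span of the positions named for each gene. Points near the bottom of the plot make up the largest part, with 1028 of 2093 below 10%, and points of intermediate level occur along the whole domain.

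Methylation at H19 was intermediate at every position tested close to the gene. The 2 positions that the authors' list gives to H19 were chr29:50151517 on the minus strand, in its promoter and an exon, and chr29:50152115 on the plus strand, in an intron. All 21 tested positions within 1 kb of them, from chr29:50150815 to chr29:50152569, had a level between 25.2 and 54.7%. Their mean level was 33.5%, below the middle of the scale. Around CD81, 5 of 6 positions were between 25 and 75%, around INS 3 of 4 and around KCNQ1 23 of 62, whereas 12 of 126 were around IGF2. The counts were 19 of 90 around LSP1, 2 of 5 around TSSC4 and 1 of 8 around MRPL23. Around ASCL2 (14 positions), TSPAN32 (7), AP2A2 (6), TH (3) and TNNI2 (2) there were 0. Over all tested positions the share was 17.8%. Each window was drawn around positions listed for an age difference.

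Averaged over the 21 positions at H19, the young cultures had a lowest ratio of 28.95%, a median of 36.9% and a highest of 49.1%. The old cultures had 21.3%, 30.3% and 35.6%. The groups overlapped, but the young culture was the higher one in each of the 6 animals, by 8.02 ± 6.73 percentage points. The window was drawn around positions that the authors had listed for their age difference, so no test was made on it. Without the 2 listed positions, the difference over the other 19 was 7.22 percentage points. On average, 19 of the 21 positions were higher in the young cultures. Close positions can be carried by the same reads, so these are not independent of the listed ones or of each other.

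Within and beside this window lay 3 intermediate runs, found with limits of 30 and 70% on the smoothed level. The words "before" and "after" refer to lower and higher coordinates. The first run, chr29:50151516-50151536 at the promoter position, held 8 positions, both strands of 4 neighbouring CpGs, at a level of 33.4%. Its ratio was 24.3, 40.1 and 62.4% (lowest, median, highest) in the young cultures and 19.6, 27.3 and 39.4% in the old ones. It was higher in the young culture of 4 of 6 animals, by 11.1 ± 15.1 percentage points (exact permutation test by sign flips within animals, two-sided, p = 0.125).

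The spread over cultures differed in size between the strands of this run. On the plus strand the 12 cultures were between 18.8 and 50.5%, with an SD of 8.76 percentage points. On the minus strand, at nearly the same coverage (14.9 against 16.5 reads), they were between 5.00 and 83.5%, with an SD of 22.4. Animal 2 gave the highest minus-strand values at both ages, 83.5% and 60%, while its plus-strand values were 41.3% and 18.8%. The called promoter position lies on the minus strand: its ratio was 12, 41 and 100% (lowest, median, highest) in the young and 14, 22.5 and 60% in the old cultures, both extremes of 100 and 60% belonging to animal 2. Its call was lost in an unpaired test of the ages, in the exact sign-flip test and in the quasi-binomial model of the reads. It was also lost in 5 of the 6 fits that left out an animal. The call stayed with limma and with both strands of the CpG merged, where the difference was 13.5 percentage points.

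The second run, chr29:50152060-50152119, held 6 positions at the intronic H19 position, and its levels differed little from each other, from 32.2 to 35.9%. Its ratio was 32.3, 37.8 and 46.3% in the young and 19.3, 30.2 and 37.5% in the old cultures. The young culture was higher in all 6 animals, by 9.53 ± 6.15 percentage points, and p = 0.031 is the smallest value that the exact sign-flip permutation test over 6 animals can give. Among all 6150 stretches of the table at these limits the limma adjusted p was 0.166, so the difference did not pass the test. Within the run, the intronic position itself had ratios of 27, 41.5 and 50% in the young and 12, 29 and 40% in the old cultures. Its call was lost in the quasi-binomial model (unadjusted p = 0.217).

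The third run, chr29:50154249-50154321, lies 2.13 kb after the intronic position and is on the minus strand at 1 of its 8 positions. Its mean level was 31.5%, but the level was 13.1% at its first and 61.1% at its last position. The ages differed by 0.479 ± 7.30 percentage points. At 4.03 kb after the promoter position, the level at chr29:50155546 had reached 84.5%, and this position was called more methylated in the old cultures, by 16.0 percentage points in all 6 animals.

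**Figure D2:**
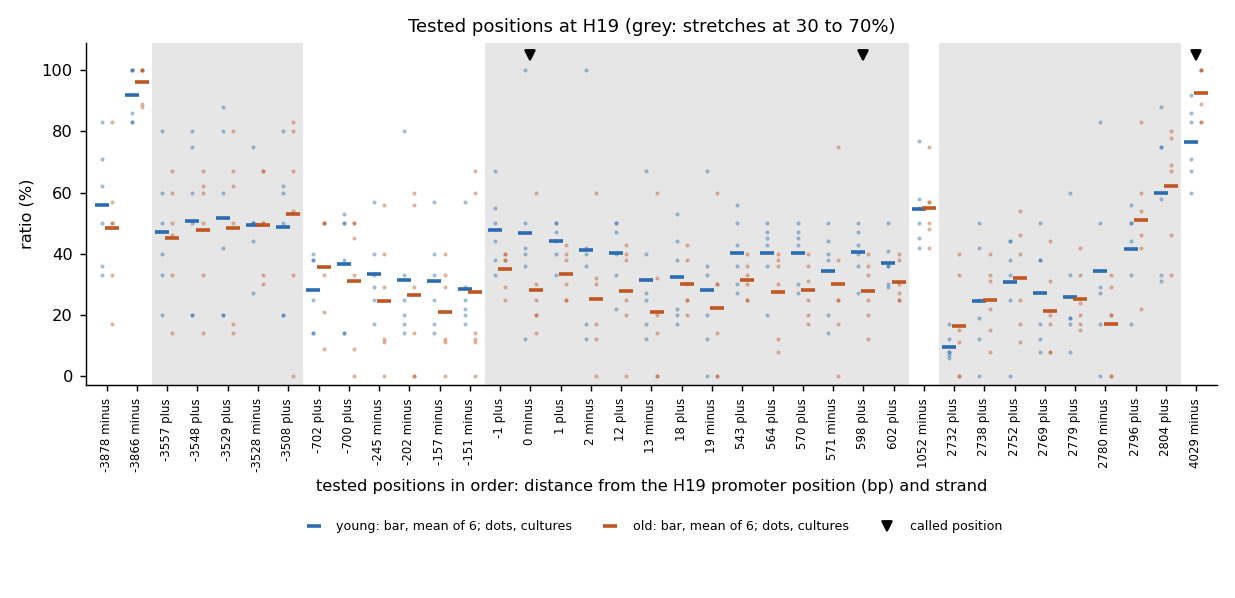
Ratio (percent) at each of the 37 tested positions around H19, in order along the chromosome and labelled by the distance in bp from the H19 promoter position and by strand. Dots are the 12 cultures, bars the means of 6 young and of 6 old cultures, grey bands the stretches at 30 to 70% and triangles the 3 called positions; the young mean lies above the old mean at most positions between -245 and 602 bp.

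IGF2 gave the opposite picture: a large unmethylated block with a short intermediate run inside it. The block chr29:50053932-50056510 held 177 tested positions over 2579 bp with a mean level of 7.13%, and 146 of them were below 10%. Without the short run, the mean ratio of the remaining 165 positions was between 2.85 and 9.87% in the 12 cultures, with an SD of 1.88 percentage points. It was higher in the young cultures by 1.89 ± 2.28 percentage points, and 4 of these positions were intermediate.

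The short run, chr29:50054223-50054257, held 12 positions within 35 bp, 234 bp after the first position named for IGF2, at a level of 30.7%. Its ratio was 9.33, 27.8 and 51.6% (lowest, median, highest) in the young and 21.8, 29.04 and 47.3% in the old cultures. The mean difference of -2.39 percentage points was small beside its SD of 25.4, and the exact sign-flip permutation test gave p = 0.969. The cultures of an animal moved in opposite ways. Animals 1 and 3 went from 51.6 to 22.5% and from 45.7 to 21.8%, whereas animals 2 and 4 went from 9.33 to 33% and from 15 to 41.8%. The cultures of an animal were 22.1 percentage points apart on average, and the young and old cultures of different animals were 13.8 apart.

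All 4 positions listed for IGF2 lie in an intron and were called more methylated in the young cultures. The position chr29:50053989 lies at the edge of the block. Its ratios were 50, 72.5 and 82% in the young and 33, 46.5 and 57% in the old cultures. The difference was 25.3 ± 13.6 percentage points with the same direction in 6 of 6 animals. The exact sign-flip permutation test then always gives p = 0.031, and the position had been listed for its age difference. The other three, inside the block, were low in both ages, and their calls were lost with the exact sign-flip test and in 4 or 5 of the 6 fits that left out an animal. The position chr29:50054604 had ratios of 7, 24 and 38% in the young and 0, 9 and 14% in the old cultures. At chr29:50054946 and chr29:50054954 every old culture was at 0%, where 48 reads allow up to 6.25% (3 reads, counting error only), and the young medians were 9 and 11.5%. On the opposite strand of those CpGs the differences were -0.167 and 4.17 percentage points.

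**Figure D3:**
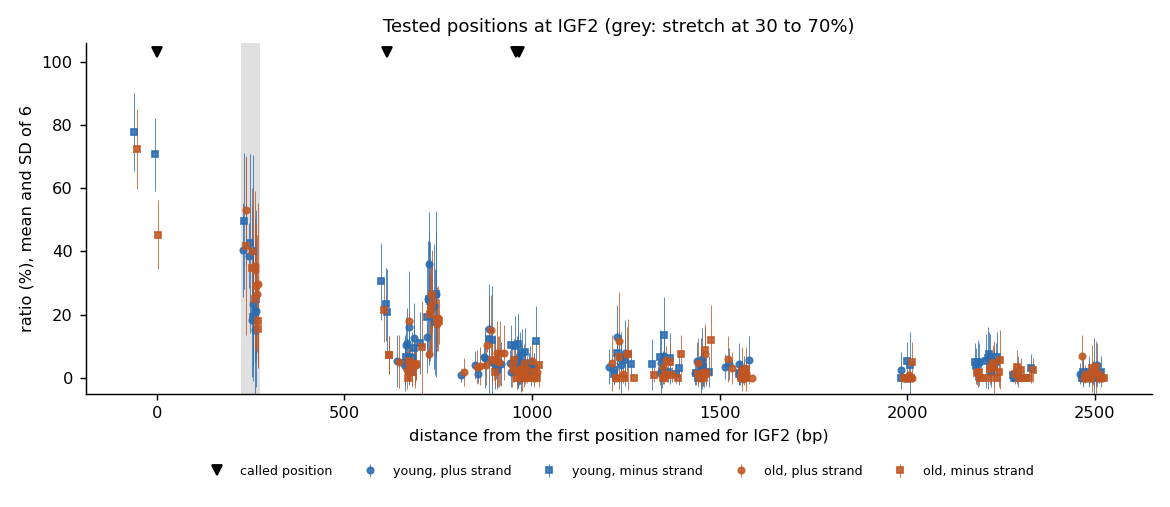
Mean ratio (percent) of the 6 young and the 6 old cultures with the SD, at each tested position of the IGF2 block, against the distance in bp from the first position named for IGF2. Triangles mark the 4 called positions and the grey band the 12-position run at 30.7%; beyond the run most means are close to 0%.

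Intermediate stretches were then sought by a single rule over the whole table. The level of each position was averaged with all tested positions within 100 bp, and a stretch is a run of at least 5 positions with this smoothed level from 35 to 65%, no gap above 200 bp, and most positions between 25 and 75% themselves. The rule averages both ages, so it does not use their difference. It found 9 stretches in the domain and 4931 in the table. They held 60 positions, 2.87% of the domain, against 7.84% of all positions. With the limits at 30 and 70%, the domain held 19 of 6150.

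The 9 stretches lay on both sides of the positions named for KCNQ1, around H19 and at LSP1. All named KCNQ1 positions are intronic, so the ends of the gene are not known here. Lower than the first of them were chr29:48807718-48807788, by 645 kb, chr29:49004372-49004428, by 449 kb, and chr29:49382441-49382543, by 70.4 kb; the listed position chr29:49382458 inside the last of these has no gene name. The stretch chr29:49723312-49723373 lay 2.44 kb after the last such position of KCNQ1, the gene of a voltage-gated potassium channel, and may lie inside the gene. Around H19 were chr29:50147960-50148009, 3.51 kb before it, chr29:50162772-50162975, 10.7 kb after it, and chr29:50178733-50178769, 4.32 kb before the position of MRPL23, which codes for a mitochondrial ribosomal protein. At LSP1, the gene of an actin-binding protein of leukocytes, chr29:50239050-50239169 holds a listed intronic position and chr29:50248087-50248154 lies 2.68 kb before a further one. Each stretch was short, with 5 to 9 positions over 37 to 204 bp and a mean coverage between 9.38 and 14.8 reads.

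Most stretches had an intermediate ratio in each culture. The rule chose them by the mean of these same 12 ratios, so an intermediate mean was given in advance. The share of all stretches with such ratios in each culture is not given here. In 7 of the 9, all 12 cultures were between 25 and 75%. In chr29:49723312-49723373, 11 were, and in chr29:50147960-50148009, 10. The SD over the 12 cultures was from 7.96 to 18.9 percentage points, with a median of 11.0. The median over all stretches of the table was 4.37. Counting error of 1 set of reads at the mean coverage of a stretch would give a median SD of 13.9 in the domain and 8.79 in the table. The observed SD was below this counting SD in 8 of the 9 stretches and in 89.0% of all stretches. The stretches of the domain were read less deeply than those of the table (median coverage 13.1 against 33.5 reads) and had fewer positions (median 7 against 10), and the part of this in the larger spread was not tested.

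The least steady stretch was the one 3.51 kb before H19. Its ratio was 26.0, 50.9 and 79.0% (lowest, median, highest) in the young and 18.4, 52.1 and 69.4% in the old cultures, on at most 83 reads per culture summed over 5 positions. Neighbouring intermediate positions on 1 strand with equal coverage had the same number of methylated reads in 8 of 12 comparisons there (66.7%), against 26.3% of 1321 in the domain and 13.6% of 481226 in the table. At the H19 promoter run this share was 49.2%, and in the LSP1 stretches it was 4.17% and 20%. Neighbouring positions can be carried by the same reads, and the number of independent molecules behind these ratios is not known.

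In some stretches the animals differed from each other at both ages. In chr29:49382441-49382543, animals 1 to 6 had 36.7, 61.4, 31.7, 67.3, 57.3 and 41.9% when young, and 43.4, 51.0, 31.4, 52.4, 61.4 and 33.9% when old. The cultures of an animal were 7.40 percentage points apart there on average, and young and old cultures of different animals 15.7. Among the further stretches, chr29:48961767-48961869 showed animal 3 at 2.57% and 5.71% while the other animals were between 31.0 and 51.1% when young and, apart from animal 6 at 7.14%, between 34.3 and 59.6% when old. Over all 9 stretches the cultures of an animal were closer than those of different animals in 5.

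Neither a gain nor a loss of methylation with age passed the test in any of the 9 stretches. In the whole table, 34 of 4931 stretches (0.69%) had a limma adjusted p under 0.05 with the animal as a block. In the domain this count was 0 and the smallest adjusted p was 0.371. The unadjusted limma p was under 0.05 in 3 of the 9 stretches, against 523 of 4931 in the table. The exact sign-flip permutation p was under 0.05 in 269 of the 4931 and in none of the 9. Their mean ratio was higher in the young cultures in 6 stretches and in the old cultures in 3.

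Those 3 were the stretch after H19 and both at LSP1. After H19, chr29:50162772-50162975 had ratios of 29.3, 39.9 and 53.6% in the young and 45.6, 52.7 and 56.2% in the old cultures, a difference of -11.9 ± 13.0 percentage points (exact sign-flip permutation test, p = 0.125). In the LSP1 intron the ratios were 35.7, 45.2 and 64.4% in the young and 47.3, 59.9 and 67.3% in the old cultures. The difference was -11.2 ± 12.3 percentage points, and the old culture was higher in 5 of 6 animals (exact sign-flip permutation test, p = 0.094). In chr29:50248087-50248154 the difference was -7.58 ± 7.61 percentage points, again in 5 of 6 animals (exact sign-flip permutation test, p = 0.0625).

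In the other 6 the mean was higher in the young cultures. The widest difference was 13.6 ± 17.2 percentage points in the stretch before MRPL23, from ratios of 50.4, 62.1 and 67.2% in the young and 28.6, 47.0 and 64.0% in the old cultures (exact sign-flip permutation test, p = 0.094). In chr29:49004372-49004428 it was 9.19 ± 12.8 percentage points, with the young culture higher in 5 of 6 animals (exact sign-flip permutation test, p = 0.0625). The remaining differences were 6.70 ± 14.6 after the last KCNQ1 position, 6.19 ± 11.0 and 3.79 ± 8.60 before the first, and 0.867 ± 29.3 percentage points before H19. The last of these turned to -4.48 without animal 1 and to -7.36 without animal 5. The young and the old ratios overlapped in every one of the 9 stretches.

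**Figure D4:**
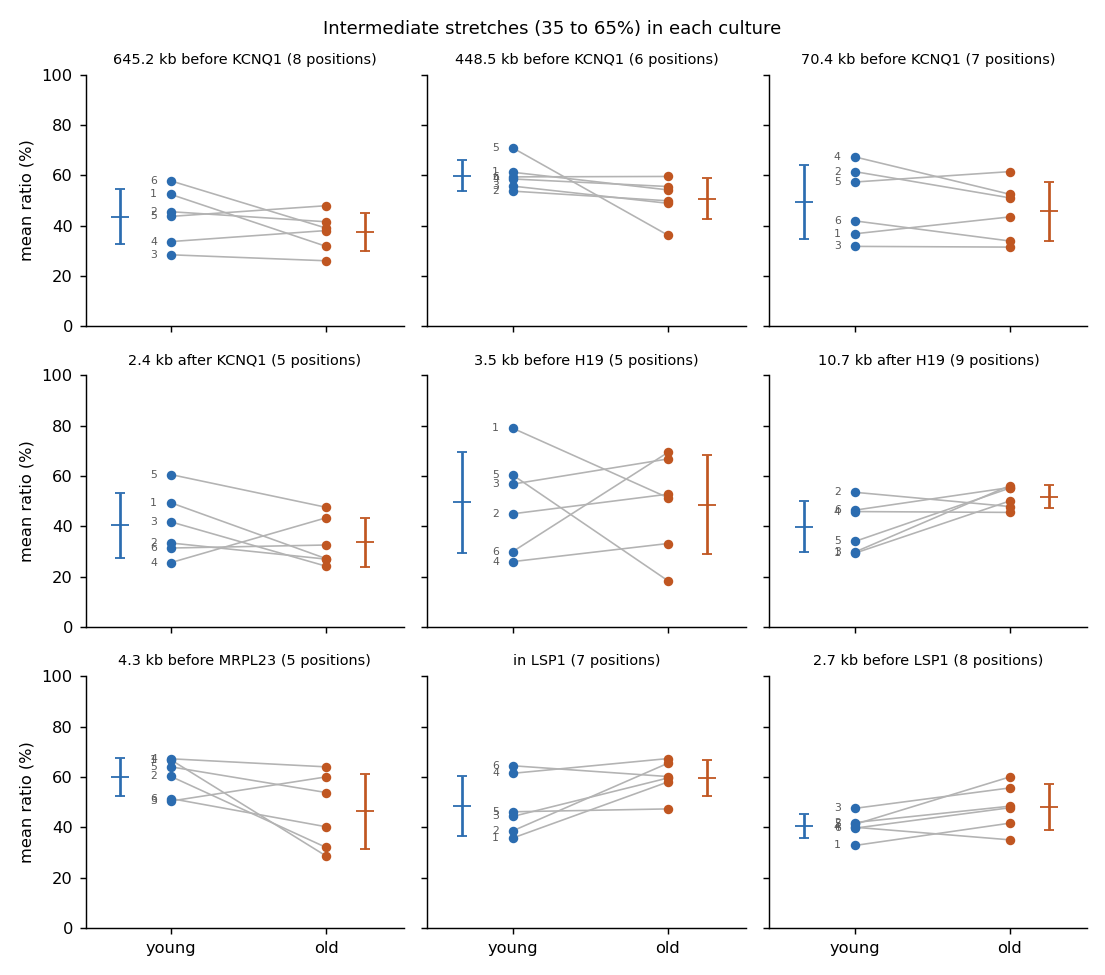
Mean ratio (percent) of each of the 9 intermediate stretches in each culture, with a line from the young to the old culture of an animal (animals numbered at the left) and the mean and SD of 6 beside each group. Titles give the distance to the nearest named position, with "before" for lower coordinates; lines cross in most panels, and the panel 3.5 kb before H19 has the widest spread.

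A pair of further runs at limits of 30 and 70% are described here, the first of which differed in the same direction in all 6 animals. The run chr29:49855204-49855281, 5.59 kb after the CD81 promoter positions, had ratios of 30.7, 34.1 and 51.8% in the young and 16.5, 23.3 and 32.5% in the old cultures. The difference was 13.8 ± 11.1 percentage points, higher in the young culture of 6 of 6 animals, and the limma adjusted p was 0.226. Its exact sign-flip permutation p of 0.031 is what 6 like signs always give, and the run was described after its values were seen. The run chr29:50368119-50368211, between TNNI2 and AP2A2, had 13 positions at a level of 65.2% and an SD over the 12 cultures of 4.76 percentage points, close to the median of 4.47 over the table. Its ages differed by -1.01 ± 8.80 percentage points. At these limits 45 of 6150 stretches (0.732%) passed the adjusted test, and 0 of 19 in the domain did. An unadjusted limma p under 0.05 was found at 5 of the 19 and at 669 of the 6150.

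Single positions were compared with the paired test of the study's methods, and a position was called where the unadjusted P was under 0.05 and the ages differed by at least 10 percentage points. Of the 2093 positions, 65 were called (3.11%), against 1.68% of all tested positions. Of these, 47 were more methylated in young cultures (2.25%, against 1.12% of all positions) and 18 in old cultures (0.860%, against 0.567%). Positions near 0 or 100% leave less room for such a difference. The domain had fewer positions below 10% and more above 90% than the whole table. The part of the levels in the share of calls was not tested. Among positions with a level of 10 to 90%, 54 of 836 were called (6.46%), against 4.55% of all such positions. On the rest of chromosome 29, 5.11% of such positions were called. With at least 10 reads in every culture, 4 of 339 were called (1.18%), against 1.06%. After Benjamini-Hochberg adjustment over the whole table, 0 positions passed in the domain or elsewhere, with a smallest adjusted p of 0.889 in the domain. With no minimum difference, 89 positions of the domain (4.25%) had an unadjusted P under 0.05 in the paired test, against 2.87% of all positions. The exact sign-flip permutation test gave an unadjusted p under 0.05 to 30 of the 2093 positions of the domain and to 9109 of all 838705.

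The called positions were scattered. The median size of the difference was 16.5 percentage points, and 13 calls reached 25 points (0.621% of the positions, against 0.390% of all tested ones). The same direction in all 6 animals was found at 25 of the 65 calls, and at 6055 of the 14129 calls of the whole table. The young and old ratios did not overlap at 1 called position, chr29:50038993 between INS and IGF2 (12 to 38% in young and 0 to 11% in old cultures). It differed by 17.3 percentage points and the opposite strand of its CpG by 0.167. In all, 0.112% of all tested positions were called without overlap of the ages. For 25 called positions the opposite strand of the CpG was tested too. It went the same way at 18 of these, by a mean of 7.21 percentage points in the called direction, where the called strand had 17.7. By interval, calls made up 1.45% of the positions before the first KCNQ1 position, 3.42% from there to ASCL2, 5.05% from ASCL2 to MRPL23 and 3.95% beyond. The intervals were cut at listed positions. In the same order, 13.3, 23.3, 24.6 and 21.2% of their positions had a level of 25 to 75%. The part of the levels in the shares of calls was not tested.

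**Figure D5:**
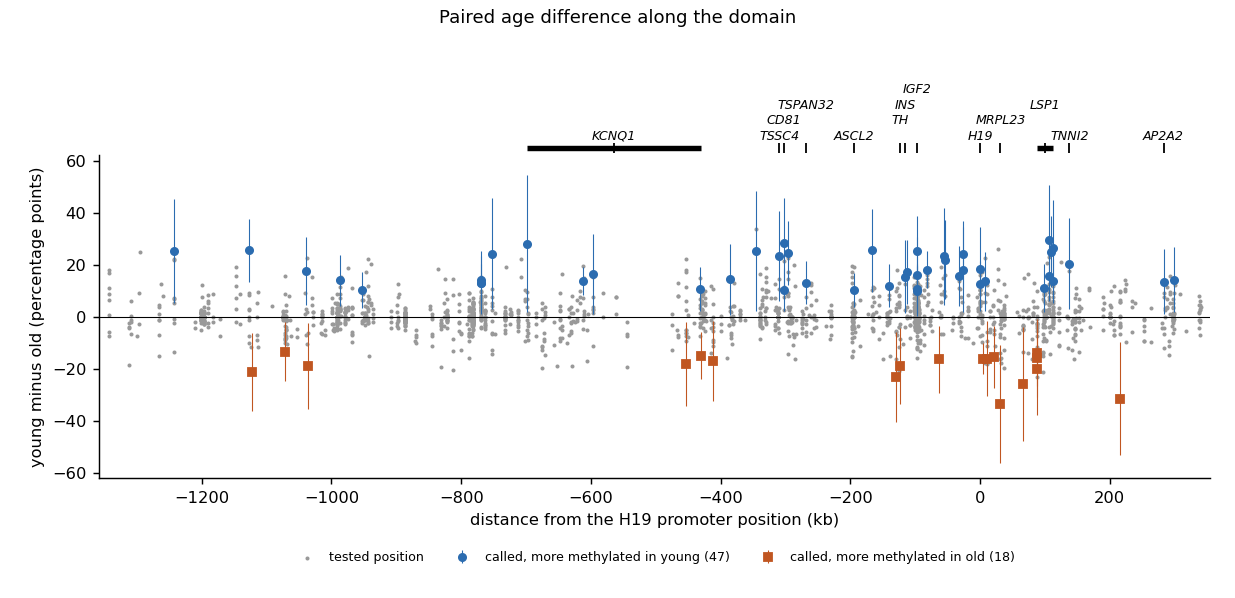
Difference of young minus old cultures (percentage points, mean of 6 animals) at each tested position against the distance in kb from the H19 promoter position. Bars on the 47 blue and 18 orange called positions are the SD of the 6 paired differences; the largest called differences are near 30 points in either direction and the grey points, which were not called, gather near 0.

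On the H19 and IGF2 side, 5 of 6 genes of the list used here (H19, IGF2, INS, TH, IGF2AS and MRPL23) held a position of the authors' list, and IGF2AS did not. For comparison, 9.83% of the 21666 protein-coding genes of the ARS-UCD2.0 table were named in that list, whether or not they held a tested position. H19 is not protein-coding, and the gene lists used here were written after the authors' results had been read. The counts of genes with a listed position therefore describe these lists and are no test of enrichment. Beside the H19 and IGF2 calls described above, the promoter of INS, the insulin gene, had 1 call: chr29:50036054 had ratios of 25, 66 and 77% in the young and 25, 44 and 67% in the old cultures, 15.5 ± 14.0 percentage points apart. The others were more methylated in old cultures. In an intron of TH, which codes for the rate-limiting enzyme of catecholamine synthesis, chr29:50028471 had 56, 73 and 89% in the young and 80, 93 and 100% in the old cultures. The intronic MRPL23 position chr29:50183084 had the largest called difference of the domain, -33.5 ± 22.5 percentage points, from 12, 42.5 and 82% in the young and 50, 77.5 and 100% in the old cultures. It went this way in 5 of 6 animals (exact sign-flip permutation test, p = 0.0625). The 8 tested positions at MRPL23 and the 3 at TH, listed ones included, were highly methylated, at mean levels of 85.2 and 88.0%. Without the listed positions, the remaining 7 and 2 differed by -5.64 and -5.67 percentage points, and some of them can share reads with the listed ones.

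On the KCNQ1 side, 5 of 15 genes held a listed position, where the 15 include genes whose tested positions, if any, could not be identified. KCNQ1 had 6 called intronic positions, 4 more methylated in young and 2 in old cultures. The widest difference was at chr29:49452969, with 40, 68.5 and 89% in the young and 12, 39.5 and 67% in the old cultures. It was 28.2 ± 26.4 percentage points in 6 of 6 animals, which always gives p = 0.031 in the exact sign-flip permutation test. The opposite strand of this CpG differed by 3.83 percentage points. At chr29:49720871, in the same gene, all old cultures were at 100% and the young ones at 75, 84 and 100%. Over the 62 positions within 1 kb of the KCNQ1 positions the level averaged 64.4%, 12 were above 90% and 23 were intermediate, and the ages differed by 2.12 ± 5.75 percentage points. Tested positions were missing from 69.2 kb inside the span of the named KCNQ1 positions, between chr29:49607654 and chr29:49676847, so nothing can be said of that interval.

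CD81 and TSPAN32, which code for tetraspanin membrane proteins, and TSSC4 lie between KCNQ1 and ASCL2. Both CD81 promoter positions were called more methylated in young cultures. Of these, chr29:49849614 had 36, 54 and 83% in the young and 14, 27.5 and 50% in the old cultures, 28.3 ± 17.4 percentage points apart. The 6 positions around them had a mean level of 39.0% and were 13.7 ± 3.49 percentage points higher in the young cultures, in 6 of 6 animals. Without the listed pair, the other 4 differed by 10.9 points, but they can be carried by the same reads as the pair. The TSSC4 promoter position chr29:49842286 had 75, 84 and 100% in the young and 50, 58.5 and 80% in the old cultures. The intronic TSPAN32 position differed by 13.2 percentage points, also in 6 of 6 animals. ASCL2, a transcription factor gene needed in trophoblast, had little methylation: 13 of 14 positions were below 10%. Its called exonic position chr29:49957380 had 0, 10 and 20% in the young cultures, and 0% in every old culture, where 62 reads allow up to 4.84%.

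On the LSP1 flank, 5 of 13 genes held a listed position, LSP1, TNNI2 and AP2A2 in the domain and MOB2 and CHID1 beyond its end on bosTau8. LSP1 had 8 called positions by name, 6 more methylated in young and 2 in old cultures. Of the latter, chr29:50239051 lies in the intermediate stretch at LSP1 described above and chr29:50238969, at a coordinate lower by 82 bp, lies just outside it. The plus strand of the CpG at chr29:50239051 was called in the same direction without a name. The intronic position chr29:50258479 was the single call with no fewer than 10 reads per culture and 1 direction in all animals. The call was lost in 2 of the 6 fits that left out an animal. The position had 9, 34 and 67% in the young cultures and 0, 0 and 17% in the old ones. The difference was 29.5 ± 21.2 percentage points. An exact sign-flip permutation p of 0.031 was fixed by choosing 1 direction in all 6 animals, so that test adds nothing here. The opposite strand differed by 9.67 points, and chr29:50258504, a few CpGs on, by 15.8 points, also in 6 of 6 animals. Over all 90 positions within 1 kb of the LSP1 positions, the young cultures were higher in 6 of 6 animals, by 2.29 ± 1.56 percentage points, and by 1.44 without the listed ones.

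Beyond LSP1, the promoter position of TNNI2, which codes for troponin I of fast skeletal muscle, had 80, 100 and 100% in the young and 40, 80.5 and 100% in the old cultures. The exonic position chr29:50434671 of AP2A2, a subunit gene of the clathrin adaptor, was at 100% in every young and at 67, 86 and 100% in the old cultures. The opposite strand of this CpG was listed too and differed by -12 percentage points, which did not pass the paired test (exact sign-flip permutation test, p = 0.125). Of 27 genes imprinted elsewhere in mammals, 6 held 30 listed positions in the table (IGF2R, ZIM2, MEST, GNAS, PLAGL1 and DIRAS3), and 0 of these lay within 1 kb of an intermediate stretch at 35 to 65%. In the domain, 2 listed LSP1 positions did, and 0 of those on the IGF2 and KCNQ1 sides. Over the whole table, 18.5% of the 4414 listed positions with a gene name lay that close to a stretch.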

How the data were processed

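The authors trimmed the reads with Trim Galore 0.3.7, aligned them to bosTau8 with Bismark 0.13.1, kept uniquely mapped reads and did not remove duplicates. The deposited methylation ratio is a fraction with 2 decimals, and the deposited coverage is a count of reads per position and strand, at least 5 in every culture. The authors' own mean differences, p-values and classes were not used. Their list of positions with P below 0.05 gave the gene names, the promoter, exon and intron classes and the CpG islands, which exist for listed positions only, and so also set the gene windows and the genes named. Positions are printed as 1 above the deposited start, taken as counted from 0, which could not be checked without a bosTau8 genome. Sequences are not analysed here.

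Positions were compared with the paired test of the methods over the whole table, stretches with limma 3.58.1 (R 4.3.3, animal as a block) on mean ratios, and named items with the two-sided exact sign-flip test (64 patterns, n = 6), in Python 3.11.15. Data columns marked A and B were read as young and old cultures, as in the paper's caption of its clustering. Cultures with the same number in their sample titles were taken to come from 1 animal. Their deviations from the age means correlated with a median of 0.0329 in the domain, against -0.00625 for different animals. The same-animal values were weak, from -0.0506 to 0.0862. Only 2 of the 6 young cultures correlated best with the old culture of their own animal. All tests were tried on simulated data. The members, gene lists and rules were chosen with earlier results of these data known. Named were all 9 stretches, all genes of the authors' list in the domain, and called positions with at least 10 reads and 1 direction in 6 animals, of which there was 1. Other positions and the runs at 30 to 70% were described after their values were seen.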

Additional observations from a re-analysis of the deposited data

Results flagged for a closer look

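Of 52 groups of 6 cultures examined, 2 held a culture far from the others of its age by Dixon's criterion for 6 samples, where chance alone gives about 1 in 20. At the H19 promoter position chr29:50151517, the old culture of animal 2 had a ratio of 60%, against a median of 22.5% over the 6 old cultures. At the LSP1 position chr29:50258479, the old culture of animal 3 had 17% and the 5 other old cultures 0%.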

How the results depend on the processing

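The count of called positions in the domain was 65. It was 4 with at least 10 reads in every culture, 13 with a minimum difference of 25 points and 29 with the exact sign-flip permutation test. In that order, these were 1.18, 0.621 and 1.39% of those tested, against 1.06, 0.390 and 0.776% over the whole table. Under 6 other settings the count was within 1.5 times 65. It was 76 without the replicate block, 79 with limma, 54 with the quasi-binomial model and 54 with merged strands. Without positions of even coverage in every culture it was 46, and with no minimum difference 89. In that order, 3.63, 3.77, 2.58, 3.26, 2.91 and 4.25% of those tested in the domain were called. Over the whole table, 1.91, 1.95, 1.24, 1.80, 1.64 and 2.87% were. Leaving out each animal gave 49 to 79 calls, of which 34 to 41 were among the 65. These were 2.34 to 3.77% of the domain, against 1.53 to 1.73% of all positions. Young cultures had more calls than old ones in each of these settings. Of the 65, 13 were called by the paired test, the unpaired test, limma, the sign-flip test and the quasi-binomial model alike. This last count was made for the domain only. The H19 promoter position lost its call without the pairing, with the sign-flip test and with the quasi-binomial model. It also lost it in 5 of 6 runs that left out an animal, and kept it with limma and with merged strands.

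The count of 9 stretches was 0 with at least 10 reads, 0 with at least 10 positions, 19 at 30 to 70% and 5 without positions of even coverage. It was 9 to 11 with the other windows and gaps and 9 to 12 with an animal left out. No stretch of the domain passed the adjusted limma test under any setting, with or without the replicate block (smallest adjusted p 0.271 without it). Leaving out an animal kept the count at 0 and the smallest adjusted p between 0.168 and 0.595. The stretch before H19 turned its direction without animal 1 and without animal 5, to -4.48 and -7.36 percentage points, its lowest value, and reached 8.92 without another. The other 8 kept theirs in each setting that gave them a value. The median SD over cultures was 15.7 at the 4 stretches left with at least 10 reads and 10.2 to 11.4 with an animal left out. The causes were not tested.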
